A study of Mus musculus with 24 samples.

Results

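To determine how an inhibitor of miR-146a-5p changed the transcriptome of β cells under inflammatory stress, ZIP+Cy cells were compared with Scr+Cy cells. MIN6 cells come from a mouse insulinoma and secrete insulin. ZIP cells carried the lentiviral anti-miRNA vector miRZip-146a and Scr cells carried a scrambled sequence in the same vector backbone, both with the copGFP reporter and selected with puromycin. In both groups the cells had been exposed for 24 h to 3 cytokines, IFNγ at 100.0 ng/ml, TNFα at 10 ng/ml and IL-1β at 5 ng/ml. The comparison used 8 of the 24 bulk RNA-seq libraries, 4 of ZIP+Cy and 4 of Scr+Cy, chosen by their labels, and 4 untreated ZIP and 4 untreated Scr libraries showed where the treated comparison differed. Each line had been grown out from picked single clones that were screened on their miR-146a-5p level, so the vector and the clone changed together and cannot be told apart. These libraries do not measure the microRNA itself, so that its inhibition could not be checked in them. By qRT-PCR, the study reported its level as unchanged in untreated ZIP cells against Scr cells. With cytokines, the study's qRT-PCR gave a far smaller rise in ZIP than in Scr cells. The sources used here do not say whether the 4 replicates of a group were separate cultures, so that p values measure the spread between these libraries.

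MicroRNAs pair through a short seed near their 5′ end with matching sites in the 3′ UTR of mRNAs and thereby lower the stability or translation of those mRNAs. miR-146a is induced by NF-κB in many cell types and is known as a brake on signalling from the IL-1 and Toll-like receptors, with the adaptors Irak1 and Traf6 as its best-known targets. In β cells, IL-1β, IFNγ and TNFα together activate NF-κB and JAK-STAT signalling, induce chemokines, antigen presentation and inducible nitric oxide synthase, and lower insulin secretion and survival. The mature miR-146a-5p (chr11:43374435-43374456, minus strand, GRCm38.p6, from RefSeq) is shown because its seed, bases 2 to 8 in capitals, is the part that pairs with target mRNAs and that an anti-miRNA occupies. miR-146b-5p (chr19:46342790-46342811, plus strand) is made from another locus and has the same seed.
miR-146a-5p: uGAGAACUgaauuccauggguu
miR-146b-5p: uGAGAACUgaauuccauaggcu
The sites that match this seed are AGTTCTC on the mRNA strand. They are shown, in capitals within 30 bases of the 3′ UTR of GENCODE release M21 (mm10), for Irak1 and Traf6 and for 3 genes of the study that changed in the comparison. Irak1 held 2 such sites and Traf6 held 4, of which the first is given.
Irak1, chrX:74015394-74015400, minus strand: agactcagaggtcaaAGTTCTCatgcttgg
Irak1, chrX:74015378-74015384, minus strand: gttctcatgcttggaAGTTCTCatagtgtg
Traf6, chr2:101697959-101697965, plus strand: accgctctggtgttgAGTTCTCatttagtt
Myrip, chr9:120474121-120474127, plus strand: ctgtcttcacttccaAGTTCTCtggttctc
Acvr2b, chr9:119433866-119433872, plus strand: gaaactcaatgctgcAGTTCTCtactagag
Rest, chr5:77286056-77286062, plus strand: tgtgatagcatctgcAGTTCTCtccctccc

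Between 26657792 and 33389240 reads were assigned to genes in each of the 8 libraries, and levels are given as CPM, the counts scaled to a fixed library total after TMM normalization. The β cell identity of the lines was visible in every library, with all 8 of the β cell markers above 1 CPM and a summed level of 18947 to 20648 CPM in Scr+Cy and 25011 to 27826 CPM in ZIP+Cy. Markers of exocrine pancreas summed to less than 1 CPM, with Krt19 at 0 in all 8 libraries. Scr+Cy replicate 1 stood apart from its group. Its mean distance to the other Scr+Cy libraries was 101.8 on the log2 CPM scale, compared with 73.3 to 75.2 for the other 3 libraries, and 202 genes reached 1 CPM there at 5 times the level of any other Scr+Cy library, compared with 0 to 2 genes in those. Among them were markers of connective tissue and peripheral nerve, including Pmp2 (a myelin protein of peripheral nerve) at 7.7 CPM, Col1a1 at 16.3 CPM and Dcn at 14 CPM. The 7 measured connective tissue and endothelial markers summed to 59.4 CPM in the Scr+Cy library where they were highest and 1.68 CPM where they were lowest, and to 3.94 to 6.60 CPM in ZIP+Cy. In ZIP+Cy replicate 3, 14 genes stood out in the same way, among them the macrophage gene Lyz2 at 1.72 CPM. Results that rest on Scr+Cy replicate 1 are given with and without it. Untreated replicate 1 of both lines was likewise highest for 2 matrix genes. Col5a2 was at 4.42 CPM there in Scr (0 to 1.15 in the other libraries) and 3.55 CPM in ZIP (0 to 0.547). Lama2 was at 2.02 CPM in Scr (0 in the other libraries) and 3.70 CPM in ZIP (0.0336 to 0.186).

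ZIP+Cy cells differed from Scr+Cy cells in the expression of 2791 of the 17696 genes tested (15.8%), at the thresholds the study used, which are 1.5-fold or more and, in edgeR's quasi-likelihood test here, p under 0.05 before adjustment. Of these genes, 1257 (7.1%) were higher and 1534 (8.67%) were lower in ZIP+Cy. The genes called higher included 7 of 18 genes for hormones and granule cargo, the glucose transporter gene Slc2a2, 9 of 25 chemokines and cytokines and Nos2. The translation factor Eef1a2 and the guidance ligand Slit1 were almost lost, while the receptors and kinases of the 3 cytokines, Irak1, Traf6 and 35 of 36 antiviral genes of the interferon response were not called. With a Benjamini-Hochberg adjusted p value under 0.05 in place of the unadjusted one, 1042 genes (5.89%) were higher and 1185 (6.7%) lower. The libraries of the 2 groups were fully separate for 4876 of all genes (27.6%) and for 73.4% of the called genes. A fold change of at least 4 was reached by 356 of the genes called higher and 586 of those called lower. Without Scr+Cy replicate 1, 1301 genes were called higher and 1207 lower, of which 1128 and 1140 were also called with it, and the genes lower by at least 4-fold numbered 333. The sources do not state whether reads were counted by strand.

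**Figure D1:**
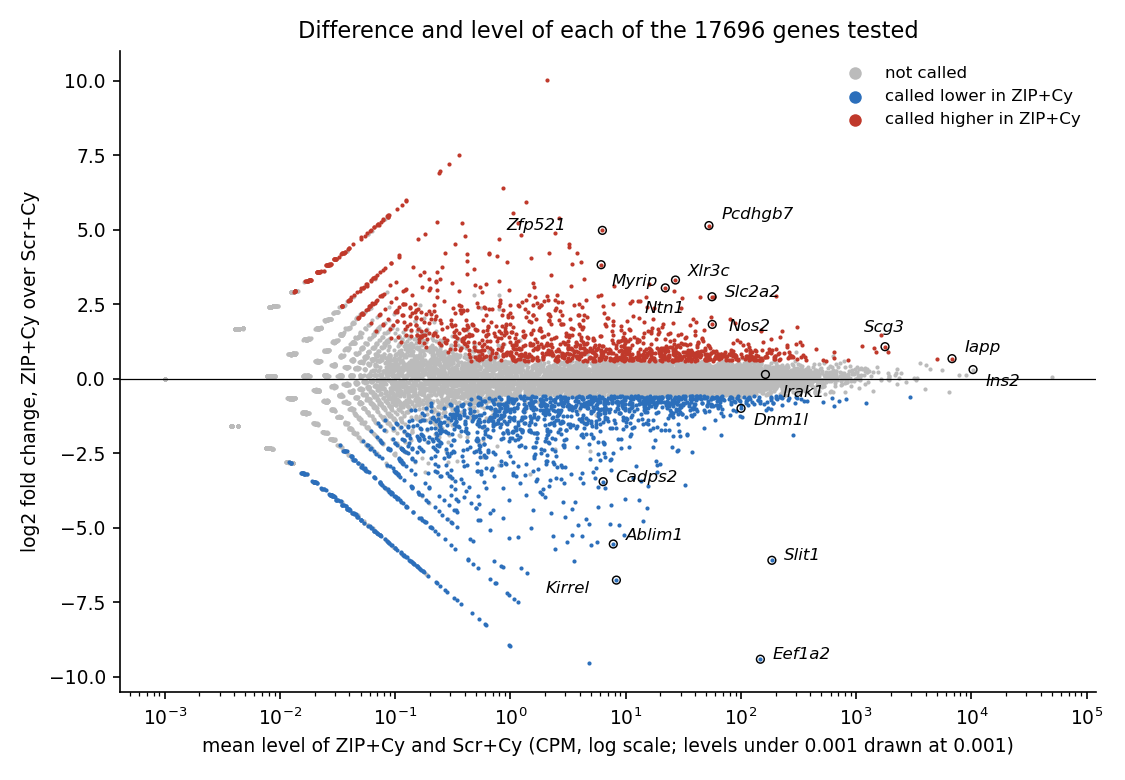
Each point is one gene, with the mean of the ZIP+Cy and Scr+Cy means on the x axis (CPM, log scale) and the log2 fold change of ZIP+Cy over Scr+Cy on the y axis; red points were called higher (1257 genes), blue points lower (1534 genes), and circles mark genes named in the text. Eef1a2 and Slit1 lie far below the other genes of their level, and the straight lines of points at the left are genes with few reads in a single group.

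The largest rises and falls among genes with at least 5 CPM in the higher group and no overlap between libraries were close to on-and-off differences. Eef1a2 (chromosome 2, 181141758 to 181157015, mm10), a translation elongation factor known mainly from neurons and muscle, was at 294, 280.2, 292 and 312 CPM in Scr+Cy replicates 1 to 4 and at 0.0698, 0.173, 0.537 and 0.903 CPM in ZIP+Cy replicates 1 to 4. Its log2 fold change was -9.42 ± 0.29 (SE, edgeR adjusted p = 2.53e-17), the lowest of the genes selected in this way. Slit1 (chromosome 19, 41600257 to 41743856), a secreted ligand of the Robo receptors, was at 396, 342, 354 and 372 CPM in Scr+Cy and 3.21, 3.7, 5.86 and 8.48 CPM in ZIP+Cy. The difference was -6.10 ± 0.23 on the log2 scale (edgeR adjusted p = 1.97e-15), and no ZIP+Cy library approached the lowest Scr+Cy library. Kirrel (an adhesion molecule of the immunoglobulin family, -6.76), Armh4 (-6.12), Ablim1 (an actin-binding protein, -5.55), Lonrf1 (-5.50), the tetraspanin Cd9 (-5.48), Steap2 (a metalloreductase, -5.30), Lrch2 (-5.24), Dclk2 (a doublecortin-like kinase, -4.92), Stk39 (a kinase that regulates chloride cotransport, -4.89) and moesin (Msn, -4.78) completed the 12 largest falls, all on the log2 scale. In the other direction, Pcdhgb7, a clustered protocadherin, was at 3.33, 3.03, 2.81 and 2.52 CPM in Scr+Cy and 104, 109, 94.9 and 103 CPM in ZIP+Cy. Its log2 fold change was 5.13 ± 0.15 (edgeR adjusted p = 9.07e-18), although protocadherins of this cluster share their last exons, so that the assignment of its reads to this member is uncertain. Others among the 12 largest rises were Dcaf8l (5.37), the zinc finger factor Zfp521 (4.97), the glycine receptor subunit Glra3 (4.41), Ccdc8 (4.21), Gli2, an effector of Hedgehog signalling (3.83), Myrip (3.82), the growth factor Tgfb2 (3.34), Xlr3c, a member of a multicopy family (3.31), the homeobox factor Six3 (3.18) and Tmem59l (3.12), again as log2 fold changes. Leaving out a single library moved 5 of these values by more than 1.5-fold. Zfp521 was at 1.23, 0.0344, 0.206 and 0.030 CPM in Scr+Cy, and without Scr+Cy replicate 1 its log2 fold change was 7.05. Without ZIP+Cy replicate 4, that of Eef1a2 was -10.17, of Kirrel -7.56 and of Cd9 -6.49, and without ZIP+Cy replicate 3 that of Steap2 was -5.98. All 24 genes were also called in the same direction between untreated ZIP and Scr cells.

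Several genes that make the secretory product of the β cell were higher in ZIP+Cy. Of the 18 genes for hormones and granule cargo, 7 rose and none fell (38.9% called, compared with 15.8% of all genes). Their median log2 fold change was 0.26, compared with -0.01 over all genes. Slc30a8 (chromosome 15, 52295553 to 52335798), the transporter that loads zinc into insulin granules, was at 17.6, 12.5, 9.78 and 6.25 CPM in Scr+Cy and at 99.5, 76.7, 68.3 and 61 CPM in ZIP+Cy. It rose by 2.73 ± 0.26 on the log2 scale (edgeR adjusted p = 1.09e-08), and each ZIP+Cy library was above every Scr+Cy library. Scg3, a sorting receptor of granule proteins, rose from 1149.8 ± 30.4 to 2413 ± 378 CPM (SD, n = 4; log2 fold change 1.07 ± 0.10, edgeR adjusted p = 1.64e-08). Pcsk2, a convertase that cleaves proinsulin, was at 1004, 992, 871 and 906 CPM in Scr+Cy and 1993, 1981, 1574 and 2129 CPM in ZIP+Cy. Its groups were likewise separate, with a log2 fold change of 1.02 ± 0.08 (edgeR adjusted p = 4.06e-10). Iapp, which encodes the peptide amylin that is secreted with insulin, rose by 0.67, Ero1b, an oxidase for disulfide bonds of proinsulin, by 0.64, and Ptprn2, a protein of the granule membrane, by 0.61 on the log2 scale. Ins1 was at 683, 603, 576 and 819.7 CPM in Scr+Cy and 1058, 1024, 900.5 and 1126 CPM in ZIP+Cy. Its log2 fold change of 0.62 ± 0.14 (edgeR adjusted p = 0.00125) lay just above the threshold and fell to between 0.55 and 0.57 when Scr+Cy replicate 2, Scr+Cy replicate 3 or ZIP+Cy replicate 4 was left out. Ins2 was at 9638, 9318, 8501 and 9606 CPM in Scr+Cy and 11560.1, 11451, 10300.3 and 12350.3 CPM in ZIP+Cy. All 4 ZIP+Cy values were the higher ones, but the log2 fold change of 0.30 ± 0.11 (edgeR adjusted p = 0.042) did not reach 1.5-fold. Ins2 was 1 of the 11 genes of the list that were not called, and the 2 of these with a log2 fold change below 0 were the granule protein Chgb (-0.46 ± 0.19, edgeR adjusted p = 0.0717) and the convertase Pcsk1 (-0.19 ± 0.13, edgeR adjusted p = 0.286). Ins1 and Ins2 are near-identical in their coding sequence and may share reads.

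In the list for glucose sensing and the channels of secretion, 3 of 22 genes rose and 4 fell (31.8% called, 15.8% of all genes). Slc2a2 (chromosome 3, 28697903 to 28728360), the glucose transporter GLUT2, was at 22.6, 14, 12.1 and 9.43 CPM in Scr+Cy and at 130.4, 96, 98.2 and 66.4 CPM in ZIP+Cy. The groups did not overlap, and the log2 fold change was 2.75 ± 0.27 (edgeR adjusted p = 2.29e-08). In bulk RNA, a change in the number of cells that express a gene and a change in RNA per cell cannot be told apart. The sodium channel gene Scn9a rose by 0.62. Hk1, a hexokinase that mature β cells express at low levels, fell from 38.5 ± 5.01 to 20.7 ± 7.06 CPM (log2 fold change -0.90 ± 0.25, edgeR adjusted p = 0.00913). Ldha, lactate dehydrogenase, also kept low in mature β cells, was at 698, 170.0, 289.9 and 626 CPM in Scr+Cy and 158, 88.2, 82.2 and 149.7 CPM in ZIP+Cy. The Scr+Cy values spread over a wide range, but all lay above those of ZIP+Cy (log2 fold change -1.90 ± 0.50, edgeR adjusted p = 0.00565). The channel genes Scn3a (-2.05) and Cacna1a (-0.60) fell as well. When Scr+Cy replicate 1 was left out, 2 genes of this list were called higher and 4 lower.

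Transcription factors of β cell identity were called at a share of 12.5%, compared with 15.8% of all genes. In edgeR, 6 of them had an unadjusted p under 0.05, compared with 6682 of all 17696 genes. Of 16, Rfx6, a factor of endocrine development, rose from 15.6 ± 1.49 to 32.8 ± 4.26 CPM (1.07 ± 0.09 on the log2 scale, edgeR adjusted p = 1.58e-09), and Glis3, an activator of insulin transcription, fell from 103 ± 2.1 to 60.04 ± 5.01 CPM (-0.78 ± 0.07, edgeR adjusted p = 5.28e-09). Pdx1 had a log2 fold change of 0.05 ± 0.06 (edgeR adjusted p = 0.621), Mafa of -0.20 ± 0.11 (edgeR adjusted p = 0.183) and Nkx6-1 of 0.26 ± 0.07 (edgeR adjusted p = 0.0102), and none of these reached the fold threshold. Of 24 genes of the exocytosis machinery, 1 rose and 2 fell (12.5% called, compared with 15.8% of all genes). Cadps2, which primes granules for release, was at 10.2, 13.8, 12.8 and 9.91 CPM in Scr+Cy and 1.08, 0.968, 0.843 and 1.32 CPM in ZIP+Cy. Its log2 fold change of -3.46 ± 0.34 (edgeR adjusted p = 2.15e-08) left no overlap between the groups. Doc2b, a calcium sensor of exocytosis, fell from 0.999 ± 0.709 to 0.106 ± 0.0512 CPM (-3.21 ± 0.51, edgeR adjusted p = 2.59e-05; -2.59 without Scr+Cy replicate 1). The member that rose was Myrip, which links insulin granules to myosin and actin and is described below with the genes of the study. Of 11 other islet hormones and factors of immature fate, 3 were called higher and 1 lower, 1 of them with an adjusted p value under 0.05 in edgeR, and without Scr+Cy replicate 1 a single gene was called. Among 20 receptors that tune secretion, the prolactin receptor Prlr fell (-0.75 ± 0.22, edgeR adjusted p = 0.012) and Igf1r rose (0.77 ± 0.22, edgeR adjusted p = 0.00922), and 18 were not called. The Prlr value rested on ZIP+Cy replicate 3, without which it was -0.56.

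**Figure D2:**
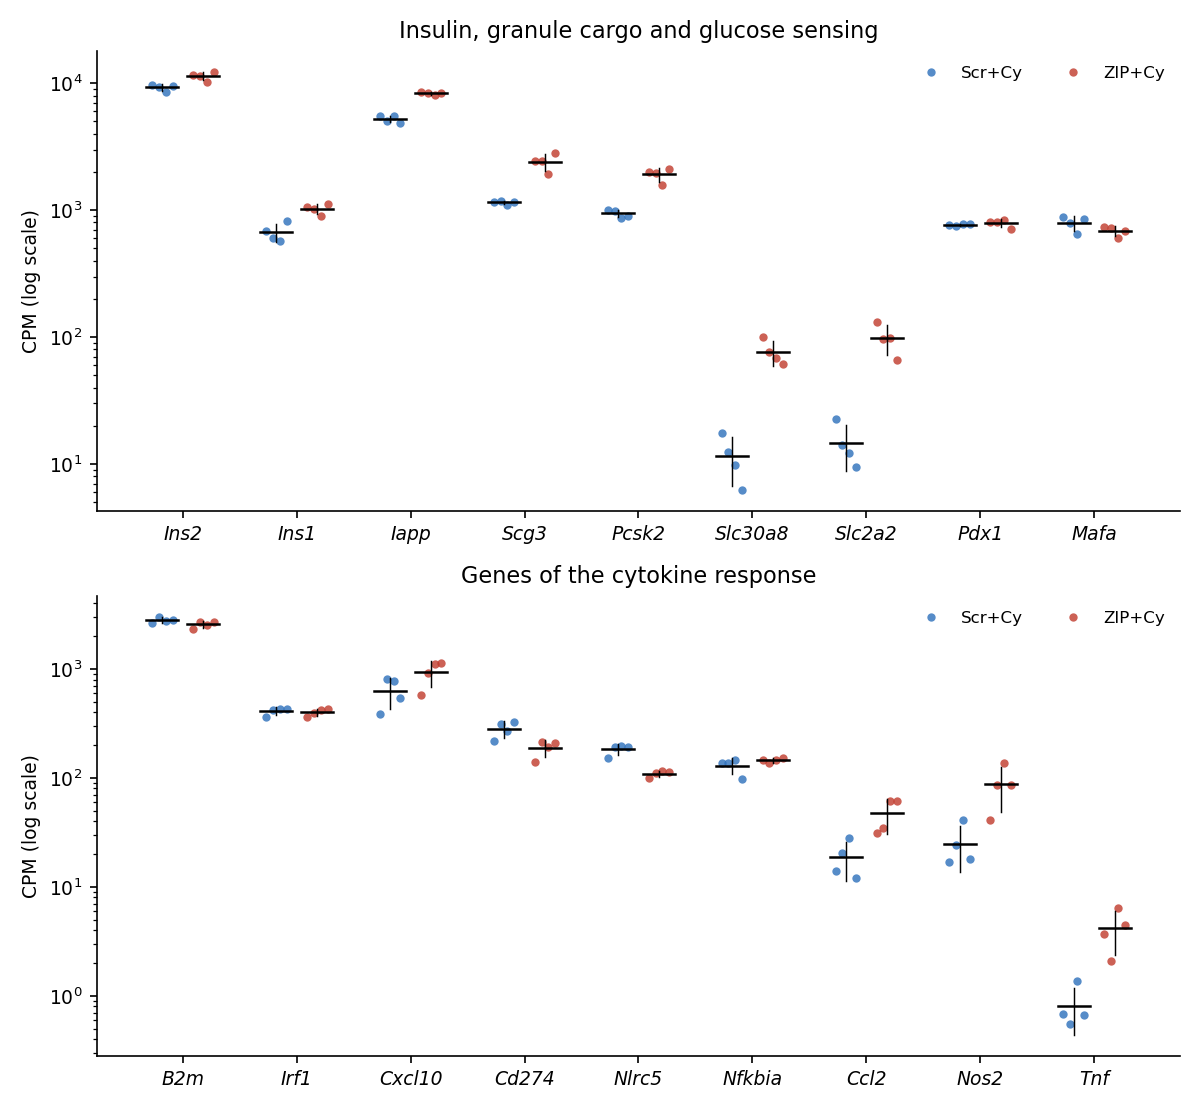
Points are the 8 libraries (CPM, log scale), with a horizontal line at the mean and a vertical line of 1 SD to each side (n = 4); Scr+Cy is blue and ZIP+Cy red. Slc30a8, Slc2a2, Scg3 and Pcsk2 are separated between the groups in the upper panel, and Nos2, Ccl2 and Tnf in the lower panel, while Pdx1, B2m and Irf1 overlap.

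Most signalling components upstream of the cytokine response were not called. Of 17 receptors and kinases of the 3 cytokines, 10 had an unadjusted p under 0.05 in edgeR, compared with 6682 of all 17696 genes. None of the 17 passed both that and the fold threshold with edgeR or DESeq2. The share called was 50.0% in the IRAK family and 11.1% for NF-κB subunits and inhibitors, compared with 15.8% of all genes. Neither of the established targets of miR-146a was called by edgeR or DESeq2. Irak1 was at 162, 165, 149 and 146 CPM in Scr+Cy and 171, 177, 152 and 184 CPM in ZIP+Cy. The groups overlapped, with a log2 fold change of 0.14 ± 0.06 (edgeR adjusted p = 0.111). Between the untreated lines, Irak1 was higher in ZIP by 0.26 ± 0.06 on the log2 scale (edgeR adjusted p = 0.00295). Those untreated groups did not overlap, but the difference stayed below 1.5-fold. The treated and untreated differences of Irak1 were not told apart (edgeR adjusted p = 0.891). Traf6 had an untreated log2 fold change of 0.02 ± 0.05 (edgeR adjusted p = 0.787). With cytokines, Traf6 was at 82.7, 78.4, 76.9 and 82.1 CPM in Scr+Cy and 83.7, 82.6, 85.4 and 74.9 CPM in ZIP+Cy, with overlapping groups (0.03 ± 0.05, edgeR adjusted p = 0.746). Of the 4 genes of the IRAK family, which pass the IL-1 signal from the receptor to Traf6, Irak4 rose from 1.47 ± 0.12 to 2.67 ± 0.186 CPM (0.86 ± 0.24, edgeR adjusted p = 0.00805) and Irak2 from 3.65 ± 0.434 to 5.95 ± 0.447 CPM (0.70 ± 0.18, edgeR adjusted p = 0.00415). Among 18 NF-κB subunits and inhibitors, Nfkbiz, a nuclear cofactor of NF-κB, rose from 22.3 ± 5.16 to 34.7 ± 4.56 CPM (0.64 ± 0.15, edgeR adjusted p = 0.00237), and Chuk, the kinase IKKα, fell from 99.3 ± 2.13 to 64.5 ± 5.77 CPM (-0.62 ± 0.06, edgeR adjusted p = 2.32e-08). Both lay close to 1.5-fold. Nfkbiz was not called without Scr+Cy replicate 2 (0.58), Scr+Cy replicate 4 (0.55) or ZIP+Cy replicate 1 (0.57), nor was Chuk without ZIP+Cy replicate 4 (-0.56). The NF-κB inhibitor Nfkbia was at 129.6 ± 21.9 and 145 ± 6.87 CPM (0.17 ± 0.10, edgeR adjusted p = 0.236).

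Of 16 STAT and IRF factors, which carry the interferon signal to the nucleus, 13 were not called. The 3 called genes (18.8%, compared with 15.8% of all genes), Irf4, Stat4 and Irf8, had fewer than 1 CPM in each group. Irf1 was at 412 ± 31.6 and 401 ± 32.2 CPM (-0.04 ± 0.09, edgeR adjusted p = 0.80). Of 13 SOCS proteins and other brakes of JAK-STAT signalling, Socs2 fell (-0.64 ± 0.09, edgeR adjusted p = 1.02e-05; -0.56 without ZIP+Cy replicate 3), and Socs1, the main inhibitor of IFNγ signalling, had a log2 fold change of -0.13 ± 0.20 (edgeR adjusted p = 0.686).

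Among the genes that cytokines induce, several chemokines and cytokines rose. Of 25 measured, 9 were called higher and 1 lower (40.0%, compared with 15.8% of all genes), with a median log2 fold change of 0.57. Tnf was at 0.677, 0.551, 1.37 and 0.661 CPM in Scr+Cy and 3.67, 2.07, 6.4 and 4.51 CPM in ZIP+Cy. The groups were separate, with a log2 fold change of 2.35 ± 0.34 (edgeR adjusted p = 1.41e-05). Ccl2, which attracts monocytes, was at 13.9, 20.4, 28.1 and 12.2 CPM in Scr+Cy and 31.2, 34.6, 60.9 and 61.9 CPM in ZIP+Cy, again without overlap (1.34 ± 0.30, edgeR adjusted p = 0.00124). Tnfsf10, the death ligand TRAIL, rose from 196 ± 47.3 to 456 ± 61.1 CPM (1.22 ± 0.25, edgeR adjusted p = 6.54e-04), and the macrophage growth factor Csf1 from 288 ± 53 to 441 ± 60.9 CPM (0.61 ± 0.16, edgeR adjusted p = 0.00455). Il1b (0.96), Cxcl1 (1.14), Ccl20 (1.69), Cxcl16 (3.07) and Cxcl9 (1.15) were the other 5 called higher. Of these, Cxcl9 had overlapping groups and an edgeR adjusted p of 0.122. Cxcl10, a chemokine for T cells, was at 385, 810.1, 783 and 541 CPM in Scr+Cy and 581, 913, 1117 and 1136 CPM in ZIP+Cy. Its values overlapped, with a log2 fold change of 0.57 ± 0.59 (edgeR adjusted p = 0.515), and it was called only with the 8 libraries fitted alone, at 0.59 without and 0.60 with the replicate number as a block. The gene called lower, Csf3, had fewer than 1 CPM in each group.

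Nos2 (chromosome 11, 78920787 to 78960226), inducible nitric oxide synthase, was at 16.8, 24.3, 40.9 and 17.9 CPM in Scr+Cy and 41.1, 85.9, 138 and 86.7 CPM in ZIP+Cy. All ZIP+Cy values lay above all Scr+Cy values, with a log2 fold change of 1.82 ± 0.38 (edgeR adjusted p = 7.26e-04), although DESeq2 gave an adjusted p of 0.201. Ass1, which recycles citrulline to arginine, the substrate of nitric oxide synthase, was at 15.3, 15.6, 16.5 and 17.3 CPM in Scr+Cy and 5.76, 5.22, 6.55 and 5.26 CPM in ZIP+Cy. The log2 fold change was -1.51 ± 0.16 (edgeR adjusted p = 6.72e-08). The other 14 genes of nitric oxide and arginine metabolism were not called.

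Most antiviral genes induced by interferon were not called. Of 36, Ifi44 alone (2.78%, compared with 15.8% of all genes) was called by edgeR (0.99 ± 0.33, edgeR adjusted p = 0.0281), and DESeq2 did not call it. Of 18 guanylate-binding proteins and immunity-related GTPases, 4 were called higher and 1 lower (27.8%, compared with 15.8% of all genes), and 16 had a log2 fold change above 0. Their median was 0.37 in the treated comparison and 1.06 between the untreated lines. Untreated ZIP replicate 4 had the highest level of its group for Gbp10 (0.168 CPM, 0 to 0.0620 in the others). It was also highest for Ifi44 (1.01 CPM, 0.0620 to 0.255). In the treated comparison, Gbp10 among these 18 genes had an adjusted p value under 0.05 (1.36 ± 0.31, edgeR adjusted p = 0.00168). Reads can be shared between these close paralogs, and without Scr+Cy replicate 1 a single member was called higher and the median was 0.17. In the presentation of antigens by MHC class I, 3 of 27 genes (11.1%) fell (2 without Scr+Cy replicate 1) and none rose. Nlrc5, the transactivator of class I genes, was at 151, 192, 198 and 193 CPM in Scr+Cy and 98.9, 111, 115 and 113 CPM in ZIP+Cy. The groups did not overlap (-0.74 ± 0.22, edgeR adjusted p = 0.0112; adjusted p = 0.264 with DESeq2). H2-T10 (-1.08) and H2-Q2 (-0.68) fell beside it, and B2m, the common light chain, was at 2804 ± 169 CPM in Scr+Cy and 2565 ± 179 CPM in ZIP+Cy (-0.13 ± 0.29, edgeR adjusted p = 0.787). Of 9 MHC class II genes, 2 were called lower, the transactivator Ciita (-0.67, edgeR adjusted p = 0.0958) and H2-DMb2, neither with an adjusted p value under 0.05. The count of MHC class II genes depended on the fit, with 6 called lower with the replicate block and 0 without ZIP+Cy replicate 1 or ZIP+Cy replicate 2.

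Of 13 surface molecules of immune recognition, 4 rose and 1 fell (38.5% called, compared with 15.8% of all genes). Ceacam1, an inhibitory receptor of lymphocytes, rose from 4.43 ± 1.27 to 13.7 ± 1.37 CPM (1.63 ± 0.15, edgeR adjusted p = 5.24e-09), Cd40 from 7.48 ± 1.42 to 17.4 ± 4.22 CPM (1.22 ± 0.20, edgeR adjusted p = 3.51e-05), Vcam1 from 0.561 ± 0.197 to 3.09 ± 1.58 CPM (2.45 ± 0.46, edgeR adjusted p = 3.25e-04) and Lgals9, galectin 9, from 16.4 ± 6.28 to 33.8 ± 12.2 CPM (1.05 ± 0.28, edgeR adjusted p = 0.00677). Cd274, the checkpoint ligand PD-L1, was at 217, 315, 270.0 and 328 CPM in Scr+Cy and 141, 213, 191 and 209 CPM in ZIP+Cy. All ZIP+Cy values were lower, and the log2 fold change of -0.58 ± 0.17 (edgeR adjusted p = 0.0142) stood just inside the fold threshold, which it passed in 5 of the 8 fits that left out a single library. Cd55, a complement inhibitor, was called lower, with overlapping groups and its highest value, 2.77 CPM, in Scr+Cy replicate 1. Its log2 fold change was -2.47 with that library and -1.41 without it.

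Genes of cell death were called in both directions, as were genes over the whole transcriptome. Among 26 caspases, death receptors and inhibitors of apoptosis, 2 rose and 4 fell. The share called was 23.1% of these and 15.0% of the BCL2 family, compared with 15.8% of all genes. Gsdmd, the pore-forming protein of pyroptosis, was at 40.3, 48.7, 51.4 and 38.5 CPM in Scr+Cy and 12.2, 12.4, 14.9 and 13.9 CPM in ZIP+Cy. It fell by 1.74 on the log2 scale (SE 0.13, edgeR adjusted p = 1.78e-10), with no overlap between groups. The TRAIL receptor Tnfrsf10b (-1.81 ± 0.22, edgeR adjusted p = 8.40e-07) and the ubiquitin ligase Birc2 (-0.81 ± 0.08, edgeR adjusted p = 1.18e-08) fell as well. Pycard, the inflammasome adaptor ASC, rose from 0.398 ± 0.0964 to 1.41 ± 0.293 CPM (1.82 ± 0.25, edgeR adjusted p = 2.99e-06), and Casp4, a caspase that cleaves gasdermin D, from 7.21 ± 1.63 to 15.6 ± 5.13 CPM (1.11 ± 0.31, edgeR adjusted p = 0.00879; adjusted p = 0.309 with DESeq2). Of 20 genes of the BCL2 family, Bid, which carries death receptor signals to mitochondria, rose from 16.4 ± 2.05 to 26.6 ± 4.63 CPM (0.70 ± 0.12, edgeR adjusted p = 1.08e-04) and Bcl2l14 rose at low levels (0.86). Bnip3, with overlapping groups, was called lower (-0.87, edgeR adjusted p = 0.128), and not without Scr+Cy replicate 1.

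Most stress genes of the endoplasmic reticulum had higher levels in ZIP+Cy, few of them beyond the threshold. Of 21 ER chaperones and genes of the unfolded protein response, 19 had a log2 fold change above 0, compared with 8378 of all 17696 genes, and the median was 0.34. Only 2 of them (9.52%) passed the threshold, compared with 15.8% of all genes. Manf, a secreted factor induced by ER stress, was at 196, 226, 209.6 and 220.4 CPM in Scr+Cy and 438, 456, 380.2 and 585 CPM in ZIP+Cy. The groups did not overlap (1.13 ± 0.12, edgeR adjusted p = 1.44e-07). Ern1, the sensor IRE1α, rose from 237 ± 18.9 to 375 ± 33.5 CPM (0.66 ± 0.10, edgeR adjusted p = 1.99e-05). Of 20 genes of the integrated stress response, which lowers translation under stress, 19 were above 0, with a median of 0.39 in the treated comparison and 0.07 between the untreated lines, and 4 rose. These were the transcription factor Atf3 (1.04 ± 0.17, edgeR adjusted p = 4.45e-05), Nupr1 (0.76 ± 0.21, edgeR adjusted p = 0.00789), the glutathione-degrading enzyme Chac1 (0.75 ± 0.20, edgeR adjusted p = 0.00746) and Ppp1r15a, which restarts translation (0.59 ± 0.10, edgeR adjusted p = 4.67e-05). Among 32 antioxidant and redox genes, 4 rose and 1, Sod3, was called lower with an edgeR adjusted p of 0.114, and not without Scr+Cy replicate 1, when its log2 fold change went from -2.40 to 2.28. The antioxidant list was called at 15.6%, compared with 15.8% of all genes. Nqo1, a quinone reductase, was at 3.94, 3.37, 2.26 and 2.04 CPM in Scr+Cy and 11.6, 9.26, 12.6 and 7.54 CPM in ZIP+Cy, without overlap (1.82 ± 0.25, edgeR adjusted p = 4.90e-06). Gpx7 (1.03), the glutathione peroxidase Gpx1 (0.74) and Txnip (0.63) were the others that rose. Sod2, the mitochondrial superoxide dismutase, had a log2 fold change of -0.05 ± 0.10 (edgeR adjusted p = 0.777).

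**Figure D3:**
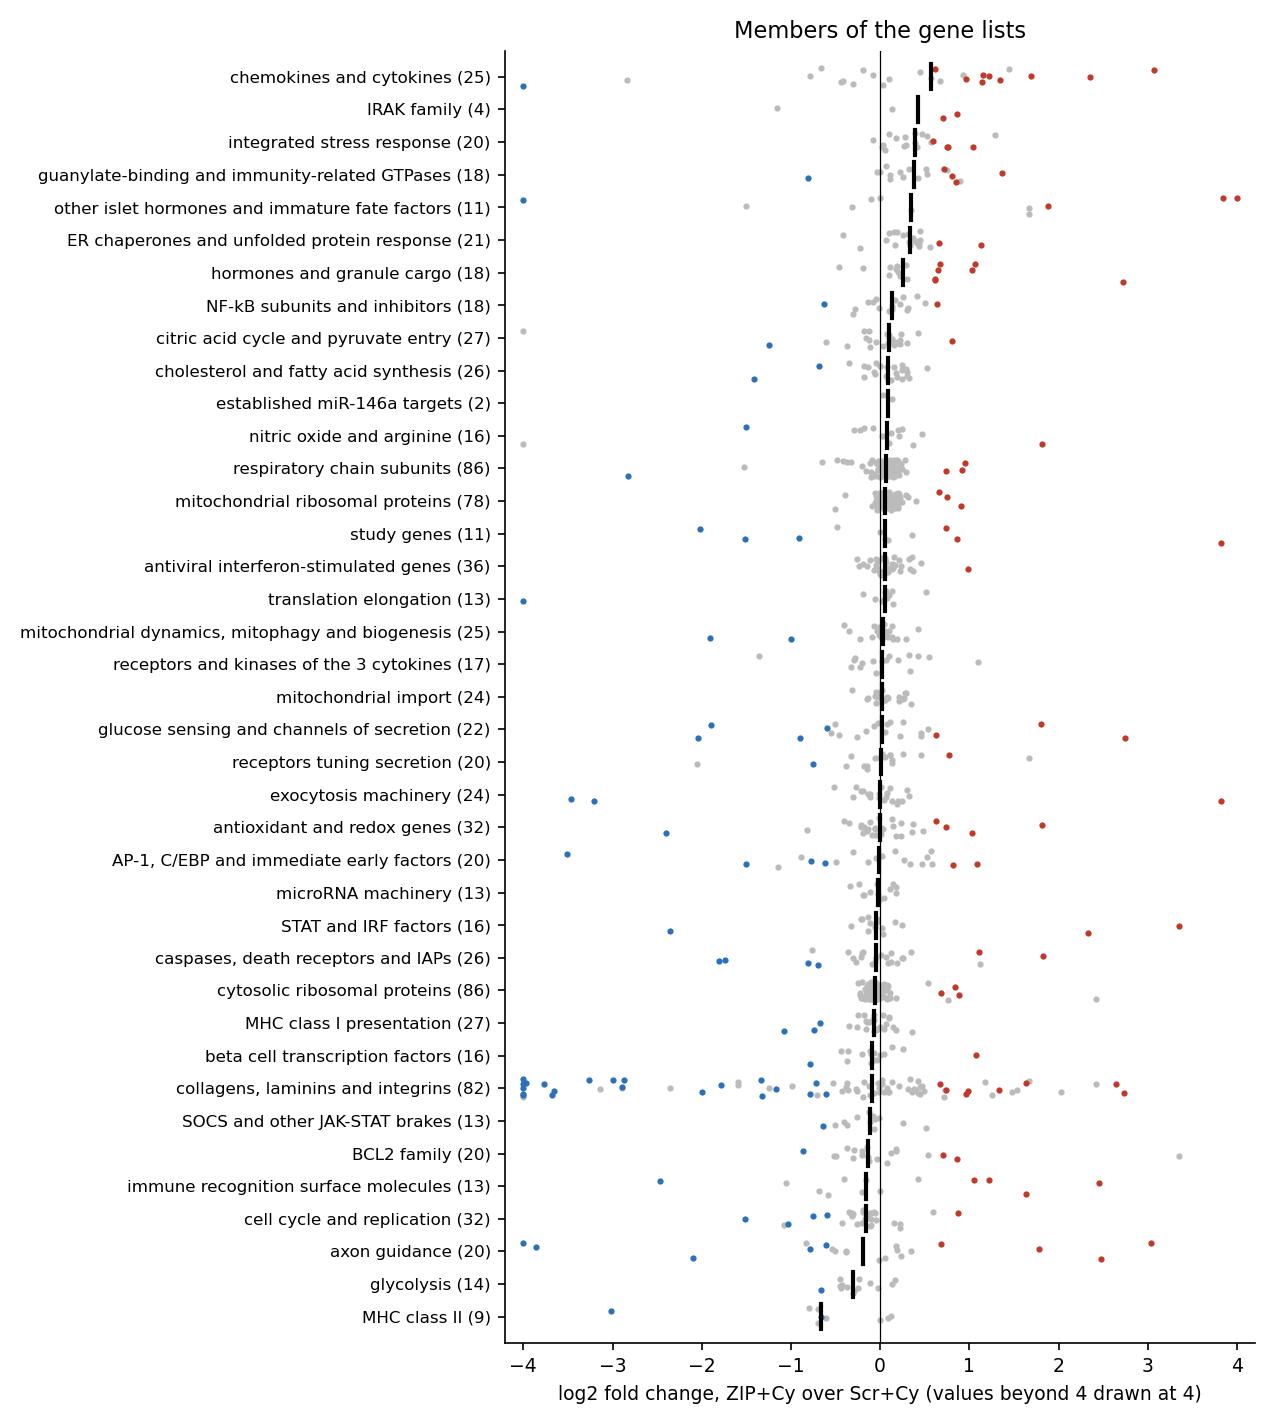
Each point is one gene of the list named at the left (number of measured members in brackets), at its log2 fold change of ZIP+Cy over Scr+Cy; red and blue points were called higher and lower, grey points were not called, and black bars are list medians; values beyond 4 are drawn at 4. The medians run from -0.67 for MHC class II to 0.57 for chemokines and cytokines, compared with -0.01 for all genes, and the blue points of collagens, laminins and integrins rested largely on Scr+Cy replicate 1.

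Mitochondrial gene lists had medians close to that of all genes, with small differences that were more often above 0. Of 86 subunits of the respiratory chain, 3 rose and 1 fell (4.65% called, 15.8% of all genes), and the median log2 fold change was 0.06. A log2 fold change above 0 was found for 62 of them, compared with 8378 of all 17696 genes. The genes that rose were Ndufs6, a subunit of complex I (0.95 ± 0.07, edgeR adjusted p = 2.22e-10), Uqcrc1 of complex III (0.92 ± 0.06, edgeR adjusted p = 7.15e-11) and Cox7a2 of complex IV (0.74 ± 0.07, edgeR adjusted p = 6.07e-09). Of 78 mitochondrial ribosomal proteins, 60 were above 0 (median 0.06), and Mrpl36 (0.90), Mrps22 (0.74) and Mrpl3 (0.66) rose (3.85% called). Mrpl36 (chromosome 13, 73331009 to 73332178) lies next to Ndufs6 (chromosome 13, 73319876 to 73328482). None of 24 genes of mitochondrial protein import was called by edgeR, with a median of 0.02, 8 of them had an unadjusted p under 0.05 and DESeq2 called none either. In the list for mitochondrial dynamics, mitophagy and biogenesis, Dnm1l and Ucp2 fell and 23 genes were not called. Dnm1l, the GTPase that divides mitochondria, was at 120.4, 139, 136 and 139 CPM in Scr+Cy and 65.8, 69.4, 68.6 and 63.5 CPM in ZIP+Cy. Every ZIP+Cy value was below every Scr+Cy value (edgeR adjusted p = 6.19e-12). Ucp2, an uncoupling protein that limits insulin secretion, was at 54.4, 56.9, 53.9 and 48.4 CPM in Scr+Cy and 13.8, 14.2, 12.2 and 16.8 CPM in ZIP+Cy, equally separate (-1.90 ± 0.12, edgeR adjusted p = 8.60e-12). In the citric acid cycle and pyruvate entry, the cytosolic malic enzyme Me1 rose from 98.3 ± 13 to 172 ± 12.7 CPM (0.81 ± 0.09, edgeR adjusted p = 1.52e-07), and its mitochondrial relative Me3, at fewer than 1 CPM, fell.

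Of 14 genes of glycolysis, 12 had a log2 fold change below 0, with a median of -0.30 in the treated comparison, -0.16 without Scr+Cy replicate 1, and 0.05 between the untreated lines. Only Pgam1 was called (-0.67 ± 0.22, edgeR adjusted p = 0.0233), and it was not called without Scr+Cy replicate 1 or Scr+Cy replicate 4. Cytosolic ribosomal proteins had a median of -0.06, and 3 of 86 (3.49%) rose, Rpsa (0.88), Rpl14 (0.84) and Rpl29 (0.68), which have pseudogenes that may share reads. Of 32 genes of the cell cycle and replication, 27 were below 0 (median -0.16), compared with 9209 of all 17696 genes. Among these 32, 4 fell and 1 rose (15.6% called, compared with 15.8% of all genes). Mcm4 fell from 245 ± 16.6 to 120.2 ± 6.22 CPM (-1.03 ± 0.07, edgeR adjusted p = 2.30e-11) and Mcm5 from 466 ± 28.5 to 277 ± 13 CPM (-0.75 ± 0.06, edgeR adjusted p = 1.78e-09), both of the replicative helicase. Cdkn1c, a cell cycle inhibitor, and the cyclin Ccnd3 fell by 1.52 and 0.60 on the log2 scale, while Ccnd2, the main D-type cyclin of β cells, rose from 1049 ± 77.1 to 1923 ± 259 CPM (0.87 ± 0.15, edgeR adjusted p = 5.13e-05). In the synthesis of cholesterol and fatty acids, the desaturase Scd1 (-0.69 ± 0.22, edgeR adjusted p = 0.0215) and, at low levels, the carboxylase Acacb (-1.41) fell, and 24 genes were not called. None of 13 genes of the microRNA machinery was called by edgeR or DESeq2, with a median of -0.02 and 4 genes at an unadjusted p under 0.05. Of 13 translation elongation factors, Eef1a2 alone was called by edgeR.

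Collagens, laminins and integrins gave 21 genes called lower and 8 called higher of 82 (35.4%, compared with 15.8% of all genes). Without Scr+Cy replicate 1, however, the counts were 7 lower and 10 higher, and the median moved from -0.09 to 0.20. Col5a2 was at 5.76, 0, 0.103 and 0 CPM in Scr+Cy and 0.0349, 0, 0 and 0 CPM in ZIP+Cy, and Lama2 at 6.4, 0.172, 0.0343 and 0 CPM in Scr+Cy and 0, 0.0691, 0 and 0 CPM in ZIP+Cy. Both calls rested on Scr+Cy replicate 1, without which neither gene was called. The log2 fold change of Col5a2 was -6.86 with and -1.54 without that library, and -8.52 without ZIP+Cy replicate 1. That of Lama2 was -6.28 with and -1.72 without it, and -8.69 without ZIP+Cy replicate 2. Lamb3, a laminin chain of basement membranes, was at 4.96, 3.82, 4.94 and 2.01 CPM in Scr+Cy and 29.4, 20.6, 40.9 and 14.1 CPM in ZIP+Cy, with no overlap (2.74 ± 0.33, edgeR adjusted p = 5.88e-07). Col22a1 (1.64 ± 0.21, edgeR adjusted p = 1.73e-06) and the integrin Itga2 (1.33 ± 0.29, edgeR adjusted p = 0.00107) rose too. Of 20 genes of axon guidance, 4 rose and 5 fell (45.0% called). Ntn1, the secreted ligand netrin 1, was at 4.13, 5.1, 5.11 and 4.81 CPM in Scr+Cy and 39, 38.4, 33.2 and 46.7 CPM in ZIP+Cy. The difference of 3.04 ± 0.12 on the log2 scale (edgeR adjusted p = 6.11e-15) left no overlap, and Unc5b, a netrin receptor, fell (-0.79 ± 0.19, edgeR adjusted p = 0.00243). The neuropilins Nrp1 (2.48) and Nrp2 (1.78) and the semaphorin Sema3a (0.69) rose. Among 20 AP-1, C/EBP and immediate early factors, Cebpd (-1.51 ± 0.21, edgeR adjusted p = 3.83e-06), Ier2 (-0.78 ± 0.16, edgeR adjusted p = 6.40e-04) and Klf4 (-0.61) fell, and Myc rose (0.82 ± 0.21, edgeR adjusted p = 0.00405).

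The study had measured a set of genes by qRT-PCR, most of them predicted targets of miR-146a-5p, chosen with these libraries in view, so that their direction here is not independent evidence. Of 11 such genes, Myrip, Acvr2b and Gpx1 rose and Eya1, Rest and Perp fell. Myrip (chromosome 9, 120304073 to 120474834) was at 1.14, 0.861, 0.652 and 0.571 CPM in Scr+Cy and 13.7, 12, 9.7 and 10.4 CPM in ZIP+Cy. The log2 fold change was 3.82 ± 0.26 (edgeR adjusted p = 5.39e-11), and its 3′ UTR holds the single seed match printed above. Acvr2b, an activin receptor with 1 match, was at 12.2, 11.3, 12.4 and 12 CPM in Scr+Cy and 23.7, 23.1, 21.9 and 18.3 CPM in ZIP+Cy (0.86 ± 0.12, edgeR adjusted p = 3.72e-06). Rest, a repressor of neuronal and endocrine genes with 1 match, fell from 1.1 ± 0.0974 to 0.378 ± 0.159 CPM (-1.52 ± 0.26, edgeR adjusted p = 7.86e-05). Eya1, a transcriptional coactivator, fell from 14.7 ± 1.69 to 3.63 ± 0.434 CPM (-2.02 ± 0.12, edgeR adjusted p = 4.55e-12), Perp, an effector of p53, from 14.8 ± 1.04 to 7.94 ± 1.0 CPM (-0.90 ± 0.09, edgeR adjusted p = 3.90e-08), and Gpx1 rose from 149 ± 13.8 to 249 ± 24.2 CPM (0.74 ± 0.08, edgeR adjusted p = 1.05e-07), and these 3 had no match. A match here means AGTTCTC in the longest annotated 3′ UTR, and no other form of site was searched. The study's own prediction, made with TargetScan, included Eya1, Perp and Glrx but not Gpx1. The groups of all 6 genes that rose or fell were separate. Nrg1 with 2 matches (0.06 ± 0.17), Sort1 (0.08 ± 0.06), Mapt (-0.00 ± 0.15) and Brsk2 (-0.49 ± 0.23) with 1 match each, and Glrx with none (0.35 ± 0.07) were not called, with edgeR adjusted p values of 0.842, 0.308, 0.99, 0.117 and 5.20e-04. Brsk2 was called lower when Scr+Cy replicate 2 (-0.62) or Scr+Cy replicate 3 (-0.68) was left out.

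Over the transcriptome, the median difference of genes with a seed match was close to that of genes without. Of 11952 genes with at least 1 CPM in either group and an annotated 3′ UTR, the median log2 fold change was -0.01 for the 10398 genes without AGTTCTC, -0.01 for the 1354 with 1 match and -0.04 for the 200 with 2 or more. In these classes, 6.72%, 6.79% and 7.0% of genes were called higher, and 7.34%, 7.98% and 9.5% lower. The 3′ UTRs of the classes differed in length, with medians of 1094.5, 2614 and 4234 bases, and the part of length in these shares was not tested.

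Some of the genes that changed lie together. When the genome was divided into 10 Mb windows, of which 247 held 10 or more genes at 10 CPM, 12 moved as a whole, taken as a median of 0.3 or more away from 0 on the log2 scale and 75% or more of the genes on that side. The 5 windows that moved up were contiguous, from 80 to 130 Mb of chromosome 9, with medians of 0.66 to 0.82, and 93.1% to 100.0% of their genes were higher in ZIP+Cy. The 7 that moved down lay on chromosome 8 (80 to 100 Mb, -0.60 and -0.57), chromosome 19 (20 to 60 Mb, -0.32 to -0.51) and chromosome 16 (10 to 20 Mb, -0.30). On chromosome 9, 186 of 533 genes at 10 CPM or more (34.9%) were called higher. The level of the chromosome 9 block, as the median log2 ratio of its 203 genes to the Scr+Cy mean, was 0.74 to 0.79 in the ZIP+Cy libraries, -0.06 to 0.06 in the Scr+Cy libraries and -0.08 to -0.03 in the OE+Cy libraries, from cells that overexpress miR-146a-5p and are set against the same Scr+Cy libraries. The blocks of chromosomes 8 and 19 were lower than in Scr+Cy in both other lines, at -0.60 to -0.57 in ZIP+Cy and -0.59 to -0.54 in OE+Cy for chromosome 8, and at -0.47 to -0.42 in ZIP+Cy and -0.41 to -0.33 in OE+Cy for chromosome 19. The chromosome 16 block was at -0.48 to -0.24 in ZIP+Cy and 0.05 to 0.15 in OE+Cy. In the windows that moved up, 228 of 377 genes (60.5%) were called higher, in those that moved down, 207 of 578 (35.8%) were called lower, and outside both 13.9% of 16741 genes were called. These were 18.1% of the genes called higher and 13.5% of those called lower. Without Scr+Cy replicate 1, the block medians were 0.81 on chromosome 9, -0.60 on chromosome 8, -0.47 on chromosome 19 and -0.30 on chromosome 16.

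Several genes described above lie in these windows. In the chromosome 9 block, where a gene that moved by its window's median would pass the 1.5-fold threshold, lie Acvr2b, Gpx1, Manf, Me1, Mrps22, Mrpl3, Rpl14, Rpl29, Rpsa, Uqcrc1 and Myrip. All 3 ribosomal proteins that rose, 2 of the 3 mitochondrial ribosomal proteins and all 3 of the study's genes that rose are among them. Myrip, at 3.82, and Manf, at 1.13, exceeded the medians of their windows (0.82 and 0.81). Acvr2b, Me1, Mrps22, Rpl14, Rpsa and Uqcrc1 exceeded theirs by less, whereas Gpx1, at 0.74, was below its window's median of 0.81. The genes that fell included several in windows that moved down. Chuk, Glis3, Scd1, Pgam1, Slit1 and Ablim1 lie in the chromosome 19 windows, Nlrc5, Ier2 and Cacna1a in those of chromosome 8, and Dnm1l, Mcm4, Cebpd and Ciita in that of chromosome 16. The part of the blocks in these fold changes was not tested. None of the 7 granule cargo genes that rose, nor Slc2a2, lies in a window that moved in its own direction by these limits. Scg3 lies next to the chromosome 9 block, at 70 to 80 Mb, in a window with a median of 0.37 (0.35 between the untreated lines) in which 71.4% of 42 genes were higher and 15 were called higher. Ins1, which lies in a chromosome 19 window with a median of -0.51, was higher in ZIP+Cy.

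**Figure D4:**
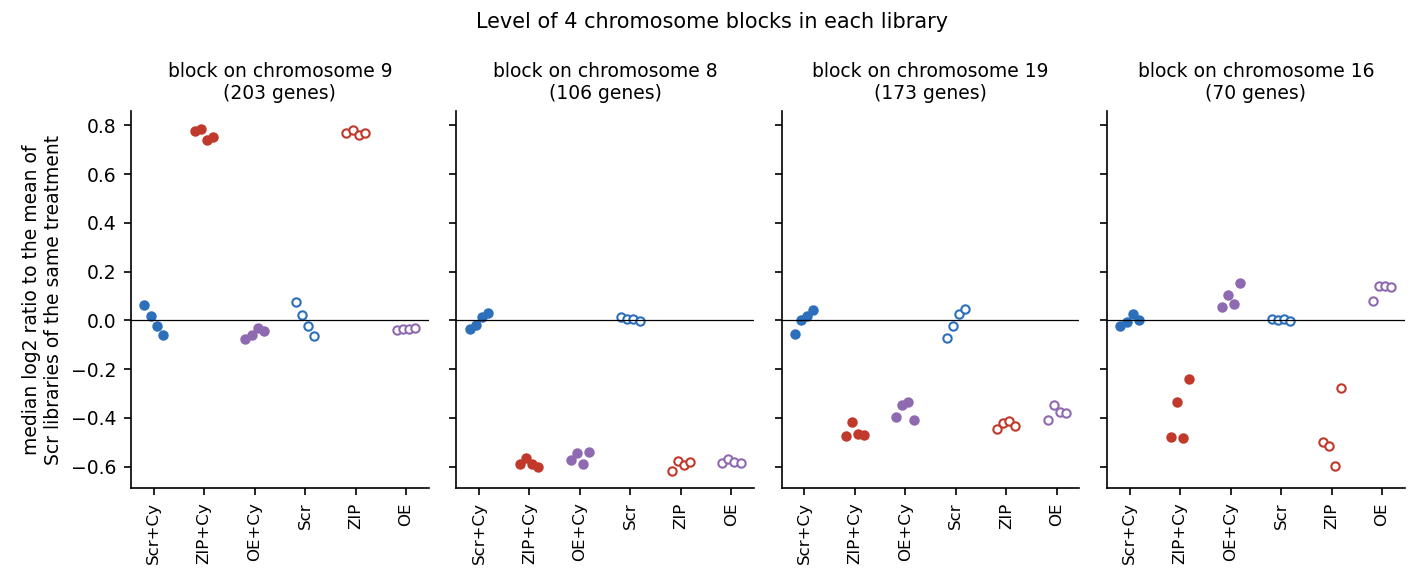
For 4 blocks of neighbouring genes, each point is a library, at the median log2 ratio of the block's genes (at 10 CPM or more) to the mean of the Scr libraries of the same treatment; filled points are cytokine-treated, open points untreated, and blue, red and purple stand for Scr, ZIP and OE lines. The chromosome 9 block is raised in ZIP libraries only, at 0.74 to 0.79 with cytokines, and the chromosome 8 and 19 blocks are lower in ZIP and OE libraries.

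The same pair of lines had been sequenced without cytokines, and the question was whether the differences were also seen without treatment. Between untreated ZIP and Scr cells, 2634 genes (14.9%) were called, 1411 (7.97%) higher and 1223 (6.91%) lower in ZIP, and 1113 (6.29%) were higher at the adjusted threshold. Of these lists, 1764 genes were called in the same direction in both comparisons, 63.2% of the treated list and 67% of the untreated list. Another 12 genes were called in opposite directions. Over the 9884 genes with at least 10 CPM in either treated group, Pearson's r of the log2 fold changes was 0.91 and Spearman's rho 0.85, a description over genes of comparisons that share no library but share the clones. Of the 916 of these genes called under cytokines, 722 (78.8%) were called the same way without them. Slc30a8 had a log2 fold change of 2.67 untreated and 2.73 treated, Slc2a2 of 2.54 and 2.75 and Eef1a2 of -8.95 and -9.42. Nos2, at 0.124 ± 0.156 CPM in untreated Scr and 1.03 ± 1.66 CPM in untreated ZIP cells, was called higher without cytokines too, with an edgeR adjusted p of 0.0802 (3.12 ± 1.31 on the log2 scale). The groups overlapped, however, and untreated ZIP replicates 1 to 4 were at 0, 0.109, 0.527 and 3.49 CPM. ZIP replicate 4 was also the highest untreated ZIP library for Cxcl10 (31.1 CPM, 0.0732 to 3.53 in the others) and B2m (96.5 CPM, 21.9 to 34.3).

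Few genes passed the test of a difference by treatment. The difference between the treated and the untreated comparison, which is also the difference between the cytokine responses of the ZIP and Scr lines, passed an adjusted p value under 0.05 in edgeR for 10 of 17696 genes (0.0565%), 9 of them (0.0509%) with a positive difference, and 1137 (6.43%) had an unadjusted p under 0.05. With the replicate number as a block, 45 genes passed, and with DESeq2 41, and both sets held the 10. Cebpd, a factor of the acute-phase response, was called lower in both comparisons, with log2 fold changes of -3.58 untreated and -1.51 treated (difference 2.07 ± 0.35, edgeR adjusted p = 0.0124). Rbms1, an RNA-binding protein, had log2 fold changes of -4.67 untreated and -2.93 treated (difference 1.74 ± 0.31, edgeR adjusted p = 0.0178). Pim2, a kinase of cell survival, was at 57.5 ± 1.02 CPM in Scr and 48.8 ± 5.42 CPM in ZIP cells and at 127 ± 13.8 CPM in Scr+Cy and 213 ± 11.4 CPM in ZIP+Cy cells, so that the higher level in ZIP was seen with cytokines (difference 0.98 ± 0.13, edgeR adjusted p = 8.96e-04). Ism1 behaved in the same way (difference 1.35 ± 0.23, edgeR adjusted p = 0.0132), and Crybg1, lower in untreated ZIP cells, was level under cytokines (difference 0.92 ± 0.15, edgeR adjusted p = 0.00688). Ntn1 was higher in ZIP cells by 4.42 untreated and by 3.04 treated (difference -1.38 ± 0.18, edgeR adjusted p = 8.96e-04). The remaining 4 were Casp8 (0.73), the caspase that starts death receptor signalling, the lysosomal enzyme Hgsnat (0.83), Mpzl1 (0.72) and the phosphatase Ptpn11 (0.65). Of the genes described as higher or lower under cytokines, Tnf (edgeR adjusted p = 0.941), Nos2 (edgeR adjusted p = 0.941), Ccl2 (edgeR adjusted p = 1.0) and Bid (edgeR adjusted p = 0.11) did not pass this test.

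**Figure D5:**
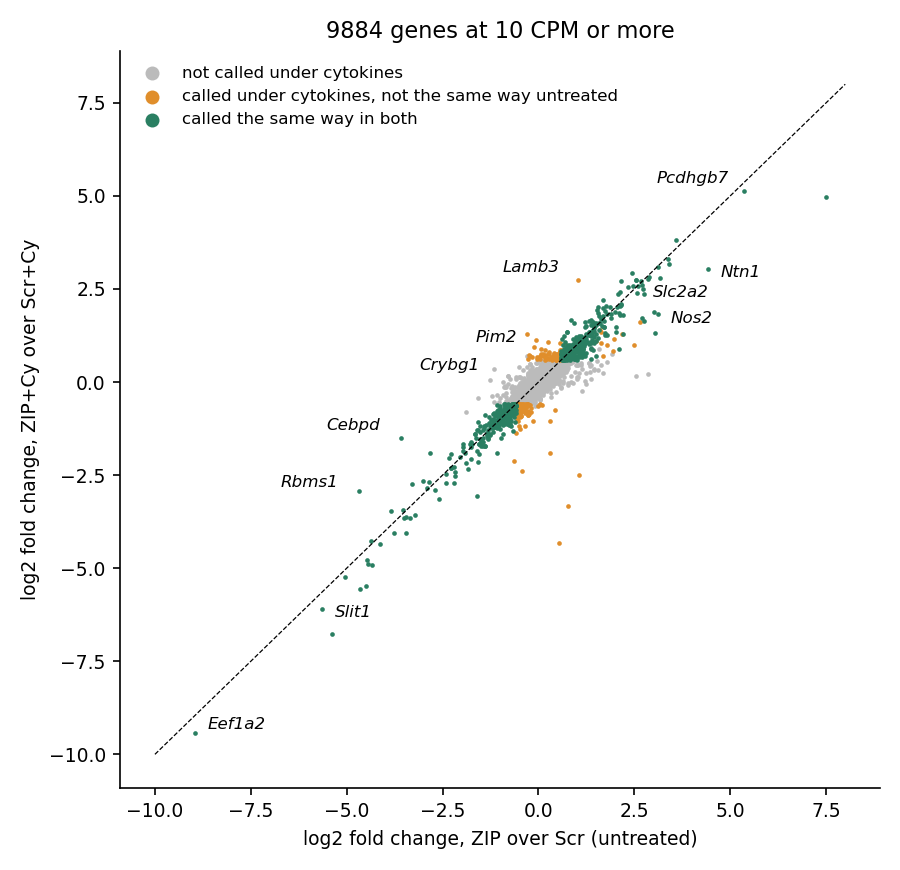
Each point is one of 9884 genes with at least 10 CPM in either treated group, at its log2 fold change of untreated ZIP over Scr (x axis) and of ZIP+Cy over Scr+Cy (y axis); green points were called the same way in both (722 genes) and the dashed line marks equal values. Most called genes lie along the line, and Cebpd, Rbms1, Pim2, Crybg1 and Ntn1 lie off it.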

How the data were processed

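RNA from MIN6 stable lines was sequenced in 24 libraries (KAPA mRNA Hyper Prep). According to the submitters' processing notes and the study's methods, the authors aligned reads to mm10 with STAR (2.7.8a in the notes) in Partek Flow (11.0.24.0204), quantified them to RefSeq transcripts and left out genes whose reads summed to less than 10. The quantification method and strand setting are not given in the sources used here. The deposited table holds estimated counts, of which 30.3% are not whole; these were rounded here. A deposited normalized table was not used. Groups came from the labels.

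All 24 libraries were fitted in 1 model of 6 group means (18 residual degrees of freedom) with TMM scaling and edgeR 4.0.16 in R 4.3.3 (quasi-likelihood test, Benjamini-Hochberg adjustment over 17696 genes), checked on simulated data. Called genes changed by 1.5-fold or more with p under 0.05 before adjustment. The difference between treated and untreated comparisons was called at an adjusted p under 0.05. Levels are CPM, means ± SD (n = 4) and fold changes ± SE. Each SE was worked back from the log2 fold change and its edgeR test result, so it is not a separate estimate of spread. It may be too small for genes nearly absent from a group. Eef1a2, at -9.42 ± 0.29, moved to -10.17 without ZIP+Cy replicate 4. A gene with 3 or fewer reads in every library of a group was taken as at the floor. Of the genes called higher, 173 were at the floor in Scr+Cy, and of those called lower, 347 in ZIP+Cy, so that their fitted folds depend on the prior count. Alternatives were DESeq2 1.42.0, its size factors, a low-count filter, the 8 libraries alone, the replicate number as a block, and leaving out each library.

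Over 12670 genes, same-numbered Scr+Cy and ZIP+Cy libraries deviated together from their group means, with correlations of 0.37, 0.29, 0.23 and 0.19. Treated pairs of different number were at -0.30 to 0.10. Same-numbered untreated pairs were at 0.63, 0.14, 0.23 and 0.15. There, however, Scr replicate 3 with ZIP replicate 4 reached 0.49, and Scr replicate 4 with ZIP replicate 3 reached 0.34. The main fit held no replicate block. Any pairing by number rests on these data, since the labels give the number and a prefix that same-numbered libraries share, and do not say what either marks. Genes named were the 12 largest rises and falls with at least 5 CPM and no overlap, the study's genes, genes of the treatment difference and key genes of the lists. Members and lists were chosen with earlier results of these data known, and further list members were named after their values were seen. Some genes are not reported here.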

Additional observations from a re-analysis of the deposited data

Results flagged for a closer look

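In 14 of 234 tests, a library lay apart from the other 3 of its group beyond Dixon's critical value, and chance gives about 1 in 20. Scr+Cy replicate 1 accounted for 8 of them. Its level of Cd9 was 15.5 CPM (9.23 to 10.1 in the other 3 libraries), of Col5a2 5.76 (0 to 0.103), of Lama2 6.40 (0 to 0.172) and of Zfp521 1.23 (0.03 to 0.206). It was low for Dnm1l at 120.4 CPM (136 to 139), Glrx at 92.7 (101 to 102), Irf1 at 365 (424 to 433) and Nlrc5 at 151 (192 to 198). In ZIP+Cy replicate 1, Col5a2 was at 0.0349 CPM and at 0 in the others, and in ZIP+Cy replicate 2 Lama2 was at 0.0691 CPM and at 0 in the others. Zfp521 was at 9.71 CPM in ZIP+Cy replicate 2 (12.8 to 13.1), Prlr at 304.0 in ZIP+Cy replicate 3 (578 to 622), Chuk at 55.8 in ZIP+Cy replicate 4 (66.5 to 67.9) and Tnf at 1.37 in Scr+Cy replicate 3 (0.551 to 0.677).

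For 6 genes described above, the log2 fold change of ZIP over Scr differed between the treated and untreated cells by edgeR's test of the difference. It went from -3.58 untreated to -1.51 treated for Cebpd (difference 2.07), from -4.67 to -2.93 for Rbms1 (1.74), from -0.26 to 1.09 for Ism1 (1.35), from -0.24 to 0.74 for Pim2 (0.98), from -0.93 to -0.01 for Crybg1 (0.92) and from 4.42 to 3.04 for Ntn1 (-1.38).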

How the results depend on the processing

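The number of genes called between ZIP+Cy and Scr+Cy was 2791 and ranged from 2299 with a low-count filter to 2797 with the replicate block on 24 libraries (2508 on 8 libraries). DESeq2 called 2431 genes, of which 2395 were shared. Leaving out 1 library gave 2508 to 2827 genes in all, 1149 to 1301 higher and 1207 to 1599 lower, with the lowest total and the fewest lower genes without Scr+Cy replicate 1. The untreated count was 2634, and 2517 to 2653 when 1 library was left out, 2262 with the low-count filter, 2431 with DESeq2 and 2670 with the replicate block. Without untreated Scr replicate 1 this count was 2653, and without untreated ZIP replicate 1 it was 2540. For the difference between the comparisons, 10 genes (9 higher and 1 lower) became 41 with DESeq2 (26 and 15) and 45 with the replicate block (26 and 19), and 7 to 12 (6 to 11 and 1 to 3) when 1 library was left out. The cause was not tested. With the replicate block on 24 libraries, no call of the 117 named genes changed. Over all alternatives, 1609 of 1637 values of named genes kept direction and side of the threshold, 9 passed it, 19 no longer did and none reversed. DESeq2 did not call Nos2, Nlrc5, Casp4, Gbp10 or Ifi44, and gave no p for Lama2. Of the counts over lists, 987 stayed within 1.5 times and 105 did not. The genes lower by at least 4-fold numbered 586 with and 333 without Scr+Cy replicate 1. The inhibitor and the clone cannot be told apart in any of these fits.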

Other observations

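Of the genes outside the lists, 3 that were chosen after their values were seen were called lower in ZIP+Cy and not called in untreated ZIP cells, but for none of them did the test of the difference pass the threshold. C3, the central complement component, was at 85, 173, 113 and 56.3 CPM in Scr+Cy and 13.3, 34.7, 28.4 and 38.4 CPM in ZIP+Cy. Its log2 fold change was -1.89 ± 0.34 treated (edgeR adjusted p = 1.25e-04) and 0.31 ± 0.65 untreated (edgeR adjusted p = 0.781), with an edgeR adjusted p for the difference of 0.566. Steap4, a metalloreductase induced by inflammation, had a log2 fold change of -2.49 ± 0.48 treated (edgeR adjusted p = 3.22e-04) and 1.05 ± 1.45 untreated (edgeR adjusted p = 0.644), with an edgeR adjusted p for the difference of 0.737. Cp, the copper-binding acute-phase protein ceruloplasmin, had -2.12 ± 0.43 treated (edgeR adjusted p = 5.55e-04) and -0.63 ± 0.64 untreated (edgeR adjusted p = 0.505), with an edgeR adjusted p for the difference of 0.809.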
